A study of Mus musculus with 22 samples.

Results

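In macrophages given bacterial lipopolysaccharide (LPS), 2083 sites of open chromatin appeared that were found neither in untreated cells nor in cells given LPS together with lactic acid (LA). They are a subset of 127890 sites, each made by merging all ATAC-seq peaks of 12 samples that share at least 1 bp. A site was taken when it held a peak in 3 of 3 LPS samples, in 0 of 3 control samples and in 0 of 3 LPS+LA samples. These sites were thus chosen by the peaks of those 9 samples, and their pattern over them is a description and not a finding. Samples given LA without LPS entered only the merging of peaks, and the RNA libraries were not used by the rule.

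All samples were bone marrow-derived macrophages (BMDMs) of C57/BL6 mice, cells grown out of marrow over 7 days with L929 supernatant, which supplies the macrophage growth factor. Treatment lasted 3 hours in every group. The groups were untreated control, LPS (100 ng/ml), LPS+LA (LPS with 10 mM L-(+)-lactic acid), LA without LPS (for which the labels give no dose of its own) and, in RNA only, LPS+HCl, where hydrochloric acid lowered the pH without lactate (the labels give pH 6.5 as an example). ATAC-seq, which cuts accessible DNA with a transposase, had 3 samples in each of 4 groups with 50000 cells per sample. RNA-seq had 2 libraries in each of 5 groups. The labels do not say whether replicates came from separate mice or cultures, so p-values measure the spread between these libraries, which may be technical.

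LPS is sensed by Toll-like receptor 4, which activates NF-kB, AP-1 and interferon regulatory factors. Together with the lineage factor PU.1 these open enhancers, DNA elements that can lie far from the gene they act on, and many LPS-induced enhancers are absent from the resting macrophage. Lactic acid delivers both lactate and protons, and accumulates where glycolysis is strong, as in inflamed tissue.

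The control and LPS samples of the ATAC-seq were sequenced on lane 5 of a flow cell and all LPS+LA and LA samples on lane 6, per the file headers. Lane and lactic acid therefore cannot be told apart in any peak pattern, and no comparison within a lane bears on lactic acid. As a measure of what follows the lane in either LPS state, 151 sites had a peak in all 6 lane 5 samples and in no lane 6 sample, and 304 had the reverse. Peak lists held 76680 to 100667 peaks, and no read depth is given for them. Among the LPS+LA lists the one of replicate 1 was shortest, with 85571 peaks against 99435 and 99416. RNA libraries held 18668648 to 20219888 counts. Summed RNA of 8 macrophage markers was 13300 to 15600 CPM (counts scaled to library size with TMM factors) over the libraries. Marker sums of 9 other cell types did not exceed 9.59 CPM, except that neuronal genes summed to 30.3 CPM in the LPS+HCl library 2 and 17.1 CPM in the control library 1, where all other libraries had 3.67 CPM or less. Neither library belongs to a group of the comparison of LPS+LA with LPS, while comparisons with control or with LPS+HCl do use them.

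Only a few of these sites overlap a promoter of the RefSeq table used here, and those that do show what the sites can hold. The genome itself was not used here, so sequences come from the RefSeq promoter table (GRCm38.p6). It spans 250 bases before to 50 bases after each start that it holds. Starts of some genes, such as Nos2 and Ripk2, are missing from it, so overlaps with their promoters could not be counted. A promoter window was overlapped by 26 of the 2083 sites (1.25%), against 66 of 5798 sites kept with lactic acid (1.14%) and 8.92% of all sites. Kept sites are the LPS-opened sites that had a peak in 3 of 3 LPS+LA samples. Among the overlapped promoters were those of Ifna14, Ifna2 and Ifna11, which encode type I interferons of the alpha family. They are shown, with that of Slfn1, because an LPS-opened site that was absent with LPS+LA covers them. The stretches are the 250 bases before the start, 5′ to 3′ along the gene, chr4:88571799-88572048 and chr4:88683780-88684029 on the minus strand and chr4:88819669-88819918 and chr11:83116570-83116819 on the plus strand. Capitals mark matches to the interferon-stimulated response element (ISRE), read as GAAA, any 2 bases and GAAA again, in the interferon genes and to the NF-kB motif in Slfn1.
Ifna14: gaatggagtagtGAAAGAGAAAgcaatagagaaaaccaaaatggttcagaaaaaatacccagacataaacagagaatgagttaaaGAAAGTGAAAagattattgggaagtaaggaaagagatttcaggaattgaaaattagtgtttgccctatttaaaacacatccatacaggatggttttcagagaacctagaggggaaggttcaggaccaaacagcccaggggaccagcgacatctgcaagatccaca
Ifna2: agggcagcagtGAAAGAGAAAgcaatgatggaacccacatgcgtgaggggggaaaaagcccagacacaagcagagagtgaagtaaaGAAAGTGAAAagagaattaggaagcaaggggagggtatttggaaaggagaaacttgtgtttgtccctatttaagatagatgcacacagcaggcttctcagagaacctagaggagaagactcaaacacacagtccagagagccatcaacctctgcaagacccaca
Ifna11: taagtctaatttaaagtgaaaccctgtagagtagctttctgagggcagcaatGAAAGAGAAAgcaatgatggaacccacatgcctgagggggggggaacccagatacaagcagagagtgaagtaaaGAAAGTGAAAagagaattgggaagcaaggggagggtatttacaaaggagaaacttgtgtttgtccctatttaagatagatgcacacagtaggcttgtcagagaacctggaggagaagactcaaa
Slfn1: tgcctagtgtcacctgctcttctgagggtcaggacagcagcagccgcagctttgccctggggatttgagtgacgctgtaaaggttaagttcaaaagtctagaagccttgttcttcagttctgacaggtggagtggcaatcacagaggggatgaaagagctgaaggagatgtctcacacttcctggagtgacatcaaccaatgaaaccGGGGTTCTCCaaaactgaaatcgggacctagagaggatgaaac

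Each of the 3 interferon promoters carried the same pair of matches, GAAAGAGAAA upstream and GAAAGTGAAA nearer the start. In Ifna14 they began at -238 and -165 from the start, in Ifna2 at -239 and -164, and in Ifna11 at -198 and -124. All 6 matches fell inside the open site of their promoter. The Ifna14 site, chr4:88571837-88572120, scored 19.2, 12.5 and 8.07 in LPS samples 1, 2 and 3. The Ifna2 site, chr4:88683819-88684148, scored 15.3, 9.57 and 6.8, and the Ifna11 site, chr4:88819637-88819948, scored 9.75, 9.19 and 10.7. Scores are those the authors' peak caller gave, on a scale that the sources used here do not state. Another such site in the interferon cluster, chr4:88742690-88743207, was the strongest of the 4 at 39.5, 25.3 and 29.0. It lay 38924 bp from the bounds of Ifnz, an interferon zeta gene, and 1510 bp from the nearest start of any gene in the promoter table. Over the whole cluster (chr4:88522025-88880201, 17 RefSeq genes) 49 sites were found, of which 4 were LPS-opened and absent with LPS+LA and 1 was LPS-opened and kept. Another 3 LPS-opened sites had a peak in 1 or 2 LPS+LA samples. Of the 49 sites, 40 had a peak in some LPS+LA sample. Over all 127890 sites, 2083 were LPS-opened and absent and 5798 were kept. Of the covered interferon genes, Ifna14 is not in the RNA table, and RNA of Ifna2 and Ifna11 was near nothing. Ifna2 and Ifna11 had 0 counts in both LPS libraries, where a group total of 0 allows up to 3 counts over the group. In LPS+LA replicate 2 they had 5 and 3 counts. The alpha interferon genes are near-identical copies, so their counts are uncertain. Ifnb1, the beta interferon gene at the end of the cluster, has no such site assigned to it and had 342 and 385 counts with LPS and 1246 and 1127 with LPS+LA. It was higher with LPS+LA by 1.40 on the log2 scale (adjusted p = 0.0219). Adjusted p-values are from quasi-likelihood tests in edgeR over all tested genes, with the Benjamini-Hochberg method.

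**Figure D1:**
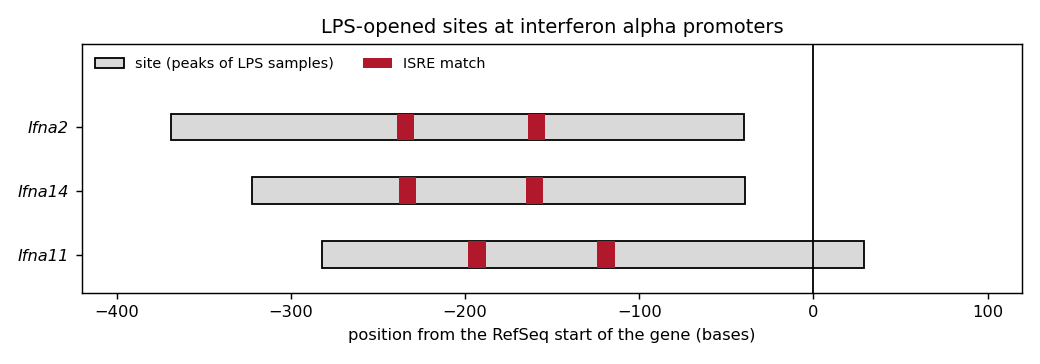
Position of the LPS-opened sites (grey) and of the ISRE matches (red) in bases from the RefSeq start of Ifna2, Ifna14 and Ifna11, drawn along each gene. The 2 matches of every promoter lie inside the site, and the sites of Ifna2 and Ifna14 end 40 and 39 bases before the start.

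Over the 32 windows that the 26 sites overlapped, an ISRE match on either strand was present in 8 (25%, exact 95% interval 11.5 to 43.4%). The share was 4.23% of the 71 windows overlapped by kept sites and 3.44% of all 32851 windows. An AP-1 match, TGANTCA, was present in 9.38% of the 32 windows, in 39.4% of those at kept sites and in 7.81% of all windows. For NF-kB the shares were 15.6%, 11.3% and 4.51%. Intervals cover counting error only, and windows of neighbouring and copied genes are not independent. These counts describe the promoters of that table, which few of the sites overlap. With only the last 200 of the 300 bases searched the ISRE share was 9.38% (exact 95% interval 1.98 to 25%), against 2.82% at kept sites and 2.06% of all windows, both within that interval; the matches of Ifna14 and Ifna2 begin farther upstream than that. Of the other motifs searched, RUNX (TGTGGT) was in 31.2% of the windows, in 19.7% at kept sites and in 16.8% of all windows. C/EBP (TTGCNNAA) was in 9.38%, 16.9% and 10.8%, STAT (TTCNNNGAA) in 6.25%, 19.7% and 8.3%, PU.1 (GAGGAAGT) in 6.25%, 4.23% and 3.2%, and the cAMP response element (TGACGTCA) in 3.12%, 1.41% and 1.79%. Neither the MiT E-box (TCACGTGA) nor NBRE (AAAGGTCA) was matched in the 32 windows. Both strands were searched, and matches of different motifs can overlap.

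Among the 27 genes of those windows, 3 were measured well enough in RNA to be tested. Slfn1, a Schlafen gene induced in activated leukocytes, has the site chr11:83116701-83117137 over its start, with an NF-kB match at -43. Its CPM was 0.323 and 0.0401 in control, 14.3 and 15.4 with LPS, 8.96 and 8.73 with LPS+HCl, and 1.55 and 2.11 with LPS+LA. Slfn1 fell from LPS to LPS+LA by 3.01 on the log2 scale (SE 0.29, adjusted p = 4.3e-09, edgeR). SE is the absolute log2 difference divided by the square root of the test's F value, and can be too small where counts are few. Ccl8, a monocyte-attracting chemokine, was at 3.37 and 4.03 CPM with LPS and at 0 in the control, LA and LPS+LA libraries, and the site chr11:82114928-82115873 covers its start. Fer, a tyrosine kinase gene, had 20.4 and 20.5 CPM with LPS and 16.7 and 18.6 CPM with LPS+LA (adjusted p = 0.197, edgeR).

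LPS opened 10579 sites in all (a peak in 3 of 3 LPS and 0 of 3 control samples), which is 8.27% of all sites. Sites with a peak in 3 of 3 LPS and 0 of 3 LPS+LA samples, whatever the control, were 2.29% of all sites; the rule used both contrasts. By the number of LPS+LA samples with a peak, the 10579 divided into 2083 sites with none, 1107 with 1, 1591 with 2 and 5798 with 3. Just outside the rule lay the 1107 sites found in 1 LPS+LA sample, 207 sites found in 1 control sample and 2120 found in 2 of 3 LPS samples. Where a single LPS+LA sample had the peak, it was replicate 1 at 77 sites, replicate 2 at 501 and replicate 3 at 529. The converse pattern, 3 of 3 LPS+LA samples and none of the LPS or control samples, held 2264 sites.

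The absent sites were weak even with LPS. A percentile places a peak's score within its own list, from 0 for the weakest. The median percentile of the 2083 sites was 28.8, 25 and 19.6 in LPS samples 1, 2 and 3, against 45.5, 41.9 and 37.7 for kept sites. Only 188, 135 and 77 of them exceeded the median of their list. The medians were higher at each step of the number of LPS+LA samples that held the peak, in each of the 3 LPS samples. No read counts over sites were used here, and a site listed as absent may hold signal under the peak caller's threshold. With the weakest 25% of peaks left out of every list, 1779 sites followed the pattern. Leaving it out of the LPS lists alone left 560, and setting all lists to equal length left 1968. Without LPS replicate 3, the sample with the fewest LPS peaks, 3482 sites followed the pattern.

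**Figure D2:**
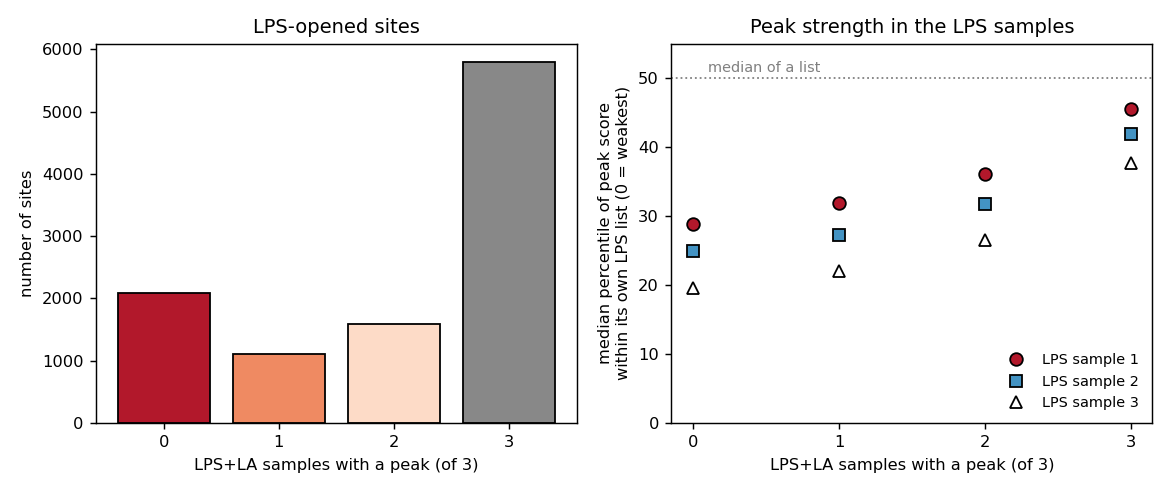
Left, number of LPS-opened sites by how many of the 3 LPS+LA samples hold a peak. Right, the median percentile of their peak scores within each of the 3 LPS lists (circle, square and triangle), which goes from 28.8, 25 and 19.6 at sites with no LPS+LA peak to 45.5, 41.9 and 37.7 at sites with 3.

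The sites were narrow and, like kept sites and most sites of any kind, lay mostly far from the starts in the RefSeq promoter table. Starts of some genes are missing from that table, so distances can be too long and shares near a start too low. The site inside Ripk2, for example, lay 1359394 bp from the nearest start in it. Their median width was 343 bp (quartiles 296 and 402), against 424 bp for kept sites and 428 bp for all sites. Within 1 kb of a start in that table lay 88 of them (4.22%), close to the 3.76% of kept sites and below the 12% of all sites. More than 10 kb from any start in that table lay 69.4%, against 67.6% of kept and 61.8% of all sites. The median distance was 21994 bp, close to the 21767 bp of kept sites, and 17270 bp over all sites. A protein-coding gene contained 54.9% of them, against 56.1% of kept and 60.6% of all sites. Exons and introns were not analysed here. A neighbouring site of the same kind lay within 50 kb of 485 sites (23.3%), and a kept site within 50 kb of 894 (42.9%).

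The strongest of them, ranked by the lowest of the 3 percentiles, lay in or near genes with other roles than cytokines. The first, chr4:63383348-63383829 inside Akna, an AT-hook protein gene, scored 123.0, 98.0 and 71.9 (percentiles 80.5, 78.5 and 74.5). The next was chr1:152526255-152526659 inside Rgl1, a Ral guanine nucleotide exchange factor gene, at percentiles 71.5, 74.1 and 72.8. Next came chr16:30678770-30679275, which had no gene of the RNA table within 50 kb. A site 9002 bp from Edn1, chr13:42291990-42292474, also ranked among the first 10, at scores of 48.7, 47.4 and 49.4. Others of the 10 were inside Pgap1, Plagl2, Snd1 and Gas7, 91 bp from Mbnl1 and 38582 bp from Ccdc71l. RNA of these genes moved unevenly between LPS and LPS+LA. Mean CPM went from 284.1 ± 7.94 to 88.46 ± 4.15 for Rgl1, from 625.5 ± 9.68 to 216.6 ± 21.9 for Plagl2 and from 444.2 ± 11.8 to 127.8 ± 10.3 for Gas7 (SD, n = 2). Smaller log2 differences were those of Ccdc71l (-0.81), Akna (-0.53), Snd1 (-0.37) and Mbnl1 (-0.19). Akna, with the strongest site, had a mean of 286.6 CPM with LPS+LA and a lower one, 215.0 CPM, with LPS+HCl. For Pgap1 the means were 13.14 ± 2.26 and 12.39 ± 1.33, which the test did not separate (adjusted p = 0.679, edgeR).

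Few of these sites had a peak with lactic acid alone: 19 of 2083 (0.912%, exact 95% interval 0.55 to 1.42%) had a peak in any LA sample. They were 5 in LA sample 1, 11 in sample 2 and 9 in sample 3. Sites are not replicates, and the interval covers counting error only, not the spread between LA samples. Of the 19, 15 had a peak in 1 LA sample, 2 in 2 and 2 in all 3. The 2 sites open in every LA sample were chr11:97993873-97994223 inside Arl5c and chr19:46819225-46819525 inside Cnnm2. Of kept sites 40.4% had a peak in at least 1 LA sample, of sites in 1 LPS+LA sample 5.15%, of those in 2 samples 11.5%, and of all sites 67.0%. Of the 207 sites with a peak in 1 control and no LPS+LA sample it was 16.4%. The absent sites were chosen for having no control or LPS+LA peak, and the kept sites for LPS+LA peaks. These shares are thus not independent of the choice of sites. LA and LPS+LA samples shared lane 6, so the share of absent sites with an LA peak is not independent of the lane that the rule also follows. It ranged from 1.13 to 1.74% when 1 ATAC sample at a time was left out of the rule and reached 2.85% with lists of equal length. Some of these values lie outside the interval.

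To follow the sites into RNA, each was assigned to the nearest gene of the RNA table within 50 kb of the gene's bounds. That gave a gene to 1727 sites (82.9%), of which 1084 lay inside the gene, and none to 356. The 1477 assigned genes included 1218 with enough counts to be tested and 259 without. These 1218 are 9.97% of the 12213 tested genes, and an enhancer need not act on the nearest gene.

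Genes next to the sites were called higher with LPS, and lower with LPS+LA than with LPS, at larger shares than all tested genes. About as many were not called lower as were, and the counts in each direction depend on the scaling given below. Between control and LPS, 596 of 1218 (48.9%) were higher and 281 (23.1%) lower (adjusted p under 0.05, edgeR), where the background over all tested genes was 32.4% in either direction. From LPS to LPS+LA, 603 (49.5%) were lower and 237 (19.5%) higher, against a background of 29.7% lower and 29.2% higher. The median log2 difference was -0.36, against 0.03 over all genes. Kept-site genes numbered 2944, of which 1295 (44.0%) were lower and 691 (23.5%) higher with LPS+LA.

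The share of genes lower with LPS+LA was much the same where only absent or only kept sites were assigned. Of 628 genes with absent but no kept sites, 41.4% were lower, and of 2354 with kept but no absent sites, 40.4%. Where a gene had both kinds (590 genes) the share was 58.1%. From control to LPS, 39.3%, 44.8% and 59.2% of these genes were higher. No test of these differences was made, since the groups were formed from results already known.

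With hydrochloric acid in place of lactic acid, fewer genes were called, among the assigned genes and over all tested genes alike. From LPS to LPS+HCl, 455 assigned genes (37.4%) were lower and 183 (15%) higher, with a background of 20.8% and 18.0%. The background from LPS to LPS+LA was 29.7% lower and 29.2% higher. Setting LPS+LA directly against LPS+HCl, 473 (38.8%) were lower with lactic acid and 152 (12.5%) higher, with a background of 22.5% and 18.4%. Without LPS, lactic acid lowered 307 (25.2%) and raised 213 (17.5%), with a background of 17.9% and 20.4%. By the interaction term, lactic acid had a more negative effect with LPS than without it for 495 genes (40.6%) and a more positive one for 208 (17.1%), with a background of 23.9% and 20.4%. These comparisons share the LPS or control libraries.

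The counts of higher and lower genes depended on how libraries were scaled. With total counts in place of TMM factors, 366 of the 1218 genes (30.0%) were higher and 659 (54.1%) lower from control to LPS. Over all tested genes 14.4% were higher and 67.9% lower. From LPS to LPS+LA 434 (35.6%) were higher and 414 (34.0%) lower, against 50.8% and 16.6% of all tested genes. From LPS to LPS+HCl 356 (29.2%) were higher and 299 (24.5%) lower, against 37.1% and 10.7%. That scaling shifted the median log2 difference of all tested genes from -0.05 to -0.77, from 0.03 to 0.43 and from 0.01 to 0.25. Relative to the median of all genes, the assigned genes stood at -0.39 from LPS to LPS+LA with TMM factors and at -0.40 with total counts.

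Genes with several of the sites were lower more often. With 1 site 475 of 1017 genes (46.7%) were lower with LPS+LA than with LPS, with 2 sites 99 of 167 (59.3%), and with 3 or more 29 of 34 (85.3%), none of which was higher. Medians of the log2 difference were -0.27, -0.55 and -1.08. The share of the same genes that were higher from control to LPS rose alike, at 46.1%, 59.3% and 82.4%. Over all tested genes 29.7% were lower with LPS+LA than with LPS, and 32.4% were higher from control to LPS. Genes with several sites are long, with a median of 197 kb for those with 3 or more sites. Among the 499 tested genes at least that long 38.7% were lower. Genes with 3 or more kept sites were lower in 62.4% of 343 cases. Length moved with the calls over all genes, from 18.7% lower among the shortest 25% of genes to 38.2% among the longest 25%, while the assigned genes went from 45.9% to 51.2%.

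**Figure D3:**
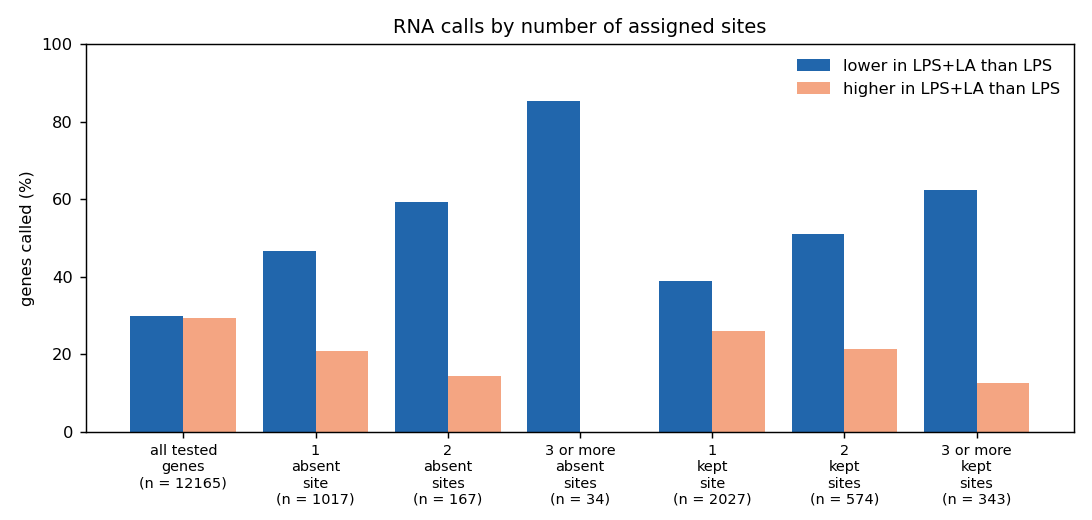
Share of tested genes (percent) called lower or higher in LPS+LA than in LPS, by the number of assigned LPS-opened sites that were absent with LPS+LA or kept, beside all tested genes that have a position. The share called lower goes from 46.7% with 1 absent site to 85.3% with 3 or more, and from 38.9% to 62.4% for kept sites.

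Slco3a1, which encodes an organic anion transporter, held 7 of the sites, more than any other tested gene, all inside the gene (chr7:74275418-74554780). The strongest pair was chr7:74449772-74450181, at scores of 26.5, 23.8 and 20.1, and chr7:74469698-74470072, at 24.8, 25.8 and 13.0. At the other 5 sites the scores lay between 5.23 and 19.6. Its RNA was 5.82 and 6.09 CPM in control, 171.5 and 175.2 with LPS, 32.3 and 31.0 with LPS+HCl, and 6.58 and 6.37 with LPS+LA. Both LPS+LA libraries were thus back near the control level, and the groups with LPS did not overlap. The fall from LPS to LPS+LA was -4.74 on the log2 scale (SE 0.12, adjusted p = 2.77e-19, edgeR).

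**Figure D4:**
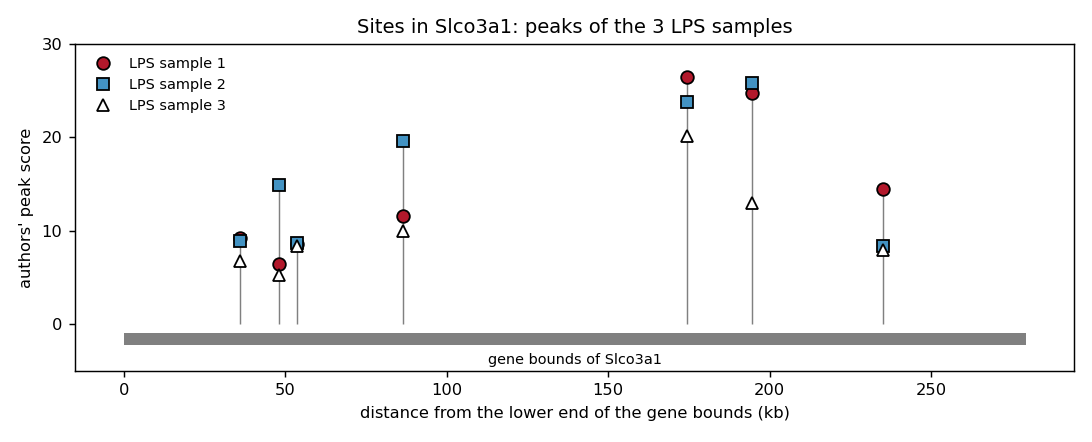
Authors' peak score in the 3 LPS samples (circle, square and triangle) at the 7 sites of Slco3a1, by distance in kb from the lower end of the gene bounds (grey bar). The 2 strongest sites lie in the upper part of the gene by coordinate, and no control or LPS+LA sample had a peak at any of the 7.

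Another 8 tested genes had 4 or more sites, and 6 of them fell from LPS to LPS+LA. The tenth gene by the rule, Cers6, was taken from the many with 3 sites for its smallest adjusted p in that comparison, so its fall is a description. Ppp1cb, a catalytic subunit of protein phosphatase 1, had 5 sites around it, all outside its bounds. Ppp1cb was at 154.9 and 161.8 CPM with LPS and 90.8 and 86.5 with LPS+LA, below both LPS libraries. Ptprc, which encodes the leukocyte phosphatase CD45, had 4 sites and was at 701.0 and 713.3 CPM with LPS and 288.3 and 309.1 with LPS+LA. Alcam, an adhesion molecule gene with 4 sites inside its bounds, was at 574.0 and 604.1 CPM with LPS and 244.1 and 233.2 with LPS+LA. Cers6, a ceramide synthase gene, had 3 sites inside it and was at 619.1 and 638.6 CPM with LPS, 193.0 and 201.8 with LPS+HCl and 95.4 and 99.9 with LPS+LA. Cers6 fell by 2.69 on the log2 scale (adjusted p = 1.16e-18, edgeR). Pcgf5, a Polycomb group gene, had a log2 difference of -1.95 and Atp8a1, a phospholipid flippase gene, one of -0.74. Btla, a lymphocyte inhibitory receptor gene, differed by -4.59 from a low level, 3.17 and 2.25 CPM with LPS. Ndufs4, a subunit of mitochondrial complex I, and Osbpl8, an oxysterol-binding protein gene, each had 4 sites and log2 differences of -0.11 and -0.01 that did not pass the test (adjusted p = 0.515 and 0.919, edgeR). Several such sites thus stood at genes that fell and at genes whose difference did not pass the test.

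The site nearest Il6, the gene of the inflammatory cytokine interleukin 6, was chr5:30020388-30021082, 413 bp beyond the gene's end, with scores of 14.1, 18.3 and 18.5. Another site, chr5:29970715-29971004, lay 42110 bp before the gene and scored 10.9, 9.83 and 5.74. Il6 had 0 counts in both control libraries and 854.6 and 800.5 CPM with LPS, at least 13700-fold higher than the 3 counts that a group total of 0 allows. LPS+HCl libraries were at 97.4 and 111.5 CPM and LPS+LA libraries at 9.63 and 8.32 CPM. The 3 groups with LPS did not overlap, and the fall from LPS to LPS+LA was -6.53 on the log2 scale (SE 0.11, adjusted p = 2.4e-21, edgeR).

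Nos2, which encodes inducible nitric oxide synthase, had 1 site, chr11:78919749-78920034, 753 bp from its bounds, with scores of 15.9, 19.5 and 11.2. Its RNA was at 0 and 0.0401 CPM in control, 1832 and 1936 with LPS, 505.0 and 484.3 with LPS+HCl, and 13.0 and 21.3 with LPS+LA. LPS+LA libraries lay far below both LPS+HCl libraries. Nos2 differed by -6.78 on the log2 scale between LPS+LA and LPS (SE 0.17, adjusted p = 3.33e-11, edgeR) and by -4.85 between LPS+LA and LPS+HCl (adjusted p = 1.22e-09).

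Ptgs2, the gene of cyclooxygenase 2, which starts prostaglandin synthesis, had a site 60 bp beyond its end, chr1:150108294-150109047, at scores of 18.0, 11.5 and 10.8. A further site, chr1:150065731-150066072, lay 33959 bp before it. RNA of Ptgs2 was 0.970 and 0.962 CPM in control, 12.4 and 14.8 with LA alone, 2979 and 2947 with LPS, 679.0 and 854.7 with LPS+HCl, and 285.5 and 273.8 with LPS+LA. Lactic acid thus moved Ptgs2 up without LPS (3.81 on the log2 scale, adjusted p = 4.11e-12) and down with it (-3.41, SE 0.09, adjusted p = 4.31e-17, edgeR).

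Ccl2, the monocyte chemokine MCP-1, had a site of a similar strength, chr11:82039000-82039347, 1548 bp from its bounds, at scores of 14.7, 13.8 and 12.6. Its RNA was 2443 and 2406 CPM with LPS, 1513 and 1484 with LPS+HCl and 1331 and 1281 with LPS+LA, a log2 difference of -0.89 (SE 0.07, adjusted p = 2.4e-10, edgeR). Il10, the gene of the anti-inflammatory cytokine interleukin 10, had the site chr1:130998745-130999136, 20709 bp away, at scores of 13.7, 9.76 and 5.68. Il10 RNA was 17.0 and 17.5 CPM with LPS and 14.0 and 19 CPM with LPS+LA, so the groups overlapped (adjusted p = 0.818, edgeR). LPS+HCl libraries had 22.6 and 28.8 CPM of Il10, above both LPS libraries (adjusted p = 0.0378). At these 5 genes the RNA differences from LPS to LPS+LA thus ranged from -6.78 at Nos2 to -0.07 at Il10, and the Il10 peak was the weakest of the nearest peaks in each LPS sample, at percentiles of 28, 18.9 and 4.98.

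Beyond those panel genes, the largest fall among assigned genes was that of Edn1, the gene of the vasoconstrictor endothelin 1, which had the strong site described above and another 43964 bp away. Edn1 was at 0.0404 and 0.0802 CPM in control, 270.3 and 249.1 with LPS, 18.1 and 21.7 with LPS+HCl, and 0.535 and 1.00 with LPS+LA. The fall from LPS to LPS+LA was -8.39 on the log2 scale (SE 0.17, adjusted p = 7.27e-21, edgeR). The LPS+LA libraries together held 29 counts of Edn1, so this SE may be too small. Serpina3g and Serpina3f, neighbouring serine protease inhibitor genes, had log2 differences of -7.68 and -6.76. They belong to a family of close copies, so reads may be divided between them.

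Some assigned genes went the other way. Lpin1, a phosphatidate phosphatase gene of lipid synthesis, was at 30.6 and 32.3 CPM in control, 0.907 and 1.32 with LPS and 21.5 and 19.1 with LPS+LA (log2 difference between LPS+LA and LPS 4.18, SE 0.24, adjusted p = 4.8e-13, edgeR). The LPS libraries together held 34 counts of Lpin1, so this SE too may be too small. The site of Lpin1, chr12:16620277-16620624, was among the weaker ones, at scores of 7.27, 6.72 and 6.55. Smad3, a transducer of TGF-beta signalling, was at 16.2 and 18 CPM in control, 3.56 and 3.63 with LPS, 25.2 and 26.2 with LPS+HCl and 39.2 and 40.7 with LPS+LA. Bhlhe41, a transcriptional repressor gene, and Lbh, a transcription cofactor gene, fell with LPS and rose by 3.25 and 3.24 from LPS to LPS+LA. Arc, known as an activity-induced neuronal gene, rose by 3.83 to 12.2 and 14.1 CPM, and its site lies 38045 bp away. The neuronal marker sum was 1.61 and 1.63 CPM in those LPS+LA libraries. So LPS-opened sites also lay near genes that LPS had lowered.

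**Figure D5:**
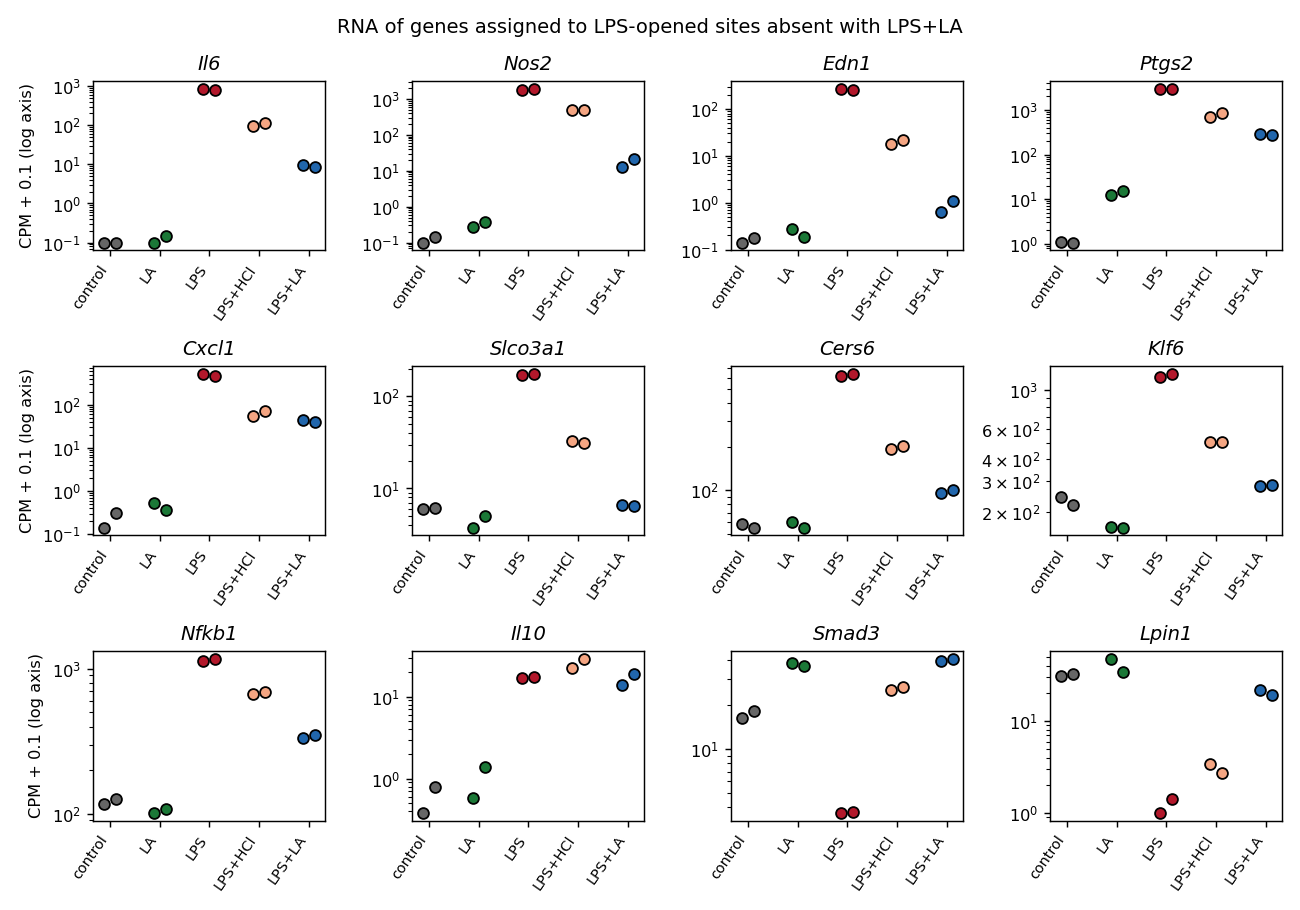
RNA of 12 genes assigned to the sites, as CPM + 0.1 on a log axis, with 1 point per library and 2 libraries in each of 5 groups. LPS+LA libraries lie below LPS+HCl and LPS libraries for the 9 genes from Il6 to Nfkb1, overlap LPS for Il10 and lie above LPS for Smad3 and Lpin1.

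The lists of inflammatory genes are set beside the 9.97% of all tested genes that had an absent site and the 24.1% that had a kept site, and no test of these shares was made. A kept site was assigned to 11 of 20 inflammatory cytokine genes, 4 of 16 chemokine genes, 16 of 32 genes of the type I interferon response and 17 of 28 genes of NF-kB signalling and feedback, so that kept sites too were at a larger share than over all genes in the cytokine, interferon and NF-kB lists. Of the 20 cytokine genes 5 had an absent site (25%), and of these Il6, Tnfsf15, Il15 and Il18 were lower with LPS+LA while Il10 did not pass the test. Over the whole cytokine list 15 of 20 were lower and 3 higher. Tnfsf15, a TNF family ligand, was at 370.2 and 353.2 CPM with LPS, 48.9 and 52.6 with LPS+HCl and 15.4 and 14.3 with LPS+LA. Il15, which sustains natural killer and memory T cells, fell by 2.99 on the log2 scale. Of the 16 chemokine genes 5 had an absent site (31.2%), namely Ccl2, Ccl4, Ccl5, Ccl12 and Cxcl1, and all 5 were lower, as were all 16 of the list. Cxcl1, which attracts neutrophils, was at 519.6 and 461.3 CPM with LPS, 55.9 and 72.8 with LPS+HCl and 45.2 and 40.2 with LPS+LA. For Cxcl1 the difference between LPS+LA and LPS+HCl was -0.59 (adjusted p = 0.000518, edgeR), small beside the -3.52 between LPS+LA and LPS.

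Among 32 tested genes of the type I interferon response 8 had a site (25%), and all 8 were lower with LPS+LA, as was the whole list. Irgm1 and Ifi47, immunity-related GTPase genes, had log2 differences of -2.54 and -2.69, and Ifit2, which encodes an RNA-binding antiviral protein, one of -2.0. Irgm1 was at 1139 and 1136 CPM with LPS, 672.8 and 630.4 with LPS+HCl and 182.1 and 208.7 with LPS+LA. Its site, chr11:48863103-48863393, was among the weakest of all, at percentiles of 0.475, 0.992 and 6.62.

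Genes of NF-kB signalling and feedback had the highest share of the 10 lists, 10 of 28 (35.7%), and all 10 were lower with LPS+LA against 23 of 28 over the list. They included the subunit genes Nfkb1 and Rel, the adaptor and kinase genes Traf1 and Ripk2, and the inhibitor genes Nfkbia, Nfkbiz, Tnfaip3, Tnip1, Irak3 and Socs3, so that activators and inhibitors were lower alike. Nfkb1 was at 1135 and 1169 CPM with LPS, 675.4 and 695.7 with LPS+HCl and 333.3 and 349.7 with LPS+LA. The log2 differences from LPS were -2.38 for Traf1, -2.06 for Ripk2 and -1.69 for Rel.

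Of 21 effector and prostanoid genes 4 had a site (19%), Nos2, Ptgs2, Casp1 and Gch1, and all 4 were lower, as were 19 of the 21 of the list. Casp1, the inflammasome protease gene, fell by 1.62, and Gch1, which acts in making a cofactor of nitric oxide synthase, fell by 1.79. Antigen presentation and costimulation had 1 site gene of 19 (5.26%), Cd86, which fell by 1.39, as 16 of the 19 fell, and whose site, chr16:36602630-36603024, was strong at percentiles of 60, 71.6 and 68.6. LPS receptors and proximal signalling had 1 of 20 (5.0%), where 11 of the 20 were lower and 2 higher; it was the kinase gene Map2k3, at 116.7 and 111.4 CPM with LPS and 125.9 and 119.6 with LPS+LA (adjusted p = 0.23, edgeR).

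Transcription factor genes were divided. Of 26 signal-dependent factors 4 had a site (15.4%), with Hif1a, Klf6 and Rel lower and Stat4 higher with LPS+LA, and over that list 12 were lower and 8 higher. Klf6 had 3 sites between 26752 and 49964 bp away and was at 1185 and 1243 CPM with LPS, 501.5 and 504.1 with LPS+HCl and 282.5 and 286.7 with LPS+LA. Stat4, which mediates interleukin 12 signals, differed by 0.91 on the log2 scale. Of 15 lineage factors 5 had a site (33.3%), with Maf, Tfec and Mitf lower and Bhlhe41 and Runx1 higher with LPS+LA, where 7 of the 15 were lower and 7 higher. Tfec, a relative of Mitf, fell by 1.66. Maf, a factor of resident macrophages, was at 341.2 and 351.6 CPM with LPS, 169.5 and 187.7 with LPS+LA and 106.0 and 95.5 with LPS+HCl, so here the HCl libraries were the lowest. Of 17 genes of the cAMP and CREB list 3 had a site (17.6%), Pde4b, Pde10a and Crem, of which Pde4b and Pde10a are phosphodiesterase genes that break down cyclic nucleotides. All 3 were lower with LPS+LA, with log2 differences of -1.44, -2.82 and -0.67, whereas 9 of the 17 genes of the list were higher. A kept site was assigned to 12 of the 26 signal-dependent factors, 7 of the 15 lineage factors and 5 of the 17 cAMP and CREB genes. For the effector, antigen presentation and LPS receptor lists it was 9 of 21, 7 of 19 and 6 of 20. Over all tested genes 24.1% had a kept site. Over all 10 lists, members were chosen with earlier results of these data known, so the shares are descriptive.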

How the data were processed

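ATAC-seq peaks of BMDMs and RNA-seq counts were analysed as deposited. Per the submitters' processing notes, ATAC reads went through BWA 0.5.9, Picard and MACS2 2.0.10 on mm10 (GRCm38), with 1 peak list per sample, and RNA reads through HISAT and Bowtie2 on GRCm38.p6. Each peak carries a score the authors deposited, with no scale stated. The RNA table holds expected counts per gene from the authors (6.07% of them not whole, rounded here), with the counting tool not given in the sources used here. FPKM and TPM values that the authors deposited beside them were not used.

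Peaks were merged and classified in Python 3.11.15. Counts were tested with edgeR 4.0.16 in R 4.3.3 (filterByExpr, TMM, robust quasi-likelihood fit over all 10 libraries, Benjamini-Hochberg over 12213 of 16059 genes), with DESeq2 1.42.0 as an alternative, after a test on simulated data. CPM is scaled with TMM factors. Each SE was derived from the log2 difference and the F value of its test. Gene positions came from RefSeq GRCm38.p6 and matched 15959 genes. ATAC data had 3 samples per group and RNA 2 libraries, at 18668648 to 20219888 counts each. No ATAC read depth was used, and intervals cover counting error only.

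Named sites were the 10 with the highest value of the lowest percentile over the LPS lists, and all at panel genes. Named genes were panel genes with a site, the 10 tested genes with most sites, the 5 largest falls and rises from LPS to LPS+LA among called genes that reach 10 CPM and do not overlap, and up to 3 per list. The sites, lists and rule were chosen with earlier results of these data known. Tests by gene length and counts of kept sites were added after seeing the data. Other alternatives covered merging, peak strength, list length, assignment distance, scaling, filtering, a replicate block and leaving out each sample.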

Additional observations from a re-analysis of the deposited data

Results flagged for a closer look

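The effect of lactic acid on RNA differed between cells with and without LPS for 41 of the 45 named genes, by edgeR's test of the interaction term with Benjamini-Hochberg adjustment over all genes. Over all 12213 tested genes the term was called for 23.9% in the negative and 20.4% in the positive direction. Many of the 45 were named for the largest falls and rises from LPS to LPS+LA, or for the smallest adjusted p in that comparison, which is itself a part of the term, so their count shows nothing beyond that choice. Values are the log2 change by lactic acid with LPS minus that without LPS. For 34 genes it was more negative with LPS. It was below -4 for Nos2 (-9.88), Edn1 (-9.45), Il6 (-8.70), Serpina3f (-7.29), Ptgs2 (-7.21), Serpina3g (-5.89), Btla (-5.87), Cxcl1 (-5.03), Tnfsf15 (-4.93) and Slco3a1 (-4.27). Without LPS, Il6, Nos2, Edn1, Btla, Serpina3f, Serpina3g, Cxcl1 and Pde10a were at or under 0.521 CPM in every library and Tnfsf15 at or under 0.670 CPM, so their values rest on few counts and depend on the prior count. A range from -4 to -2 held Ccl12 (-3.63), Pde10a (-3.22), Ripk2 (-3.01), Il15 (-3.00), Gch1 (-2.86), Traf1 (-2.83), Pde4b (-2.76), Cers6 (-2.71) and Rel (-2.29). Smaller differences were found for Ifi47 (-1.85), Irgm1 (-1.81), Ifit2 (-1.77), Pcgf5 (-1.74), Cd86 (-1.63), Klf6 (-1.58), Nfkb1 (-1.53), Crem (-1.48), Casp1 (-1.45), Ptprc (-1.03), Tfec (-0.97), Alcam (-0.88), Ccl2 (-0.70), Ppp1cb (-0.69) and Map2k3 (-0.64). A more positive effect with LPS was found for Lpin1 (3.82), Lbh (3.34), Bhlhe41 (2.97), Arc (2.48), Smad3 (2.34), Maf (0.54) and Osbpl8 (0.30).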

How the results depend on the processing

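Of 228 recomputed values of the main results, 201 stayed within 1.5 times the main count or within its error, and 27 did not. With the weakest 25% left out of the LPS lists only, 560 sites remained in the pattern, of which 0.357% had a peak with LA alone, and of 375 tested genes 208 were lower and 80 higher with LPS+LA and 81 lower and 201 higher with LPS. With equal list lengths the LA share was 2.85%. Without 1 ATAC sample at a time the sites numbered 2126 to 3482, the LA share was 1.13 to 1.74%, genes lower and higher with LPS+LA 609 to 848 and 242 to 379, and genes lower and higher with LPS 287 to 461 and 603 to 844. The highest counts came without LPS replicate 3, the sample with the fewest LPS peaks. The ISRE share in 200-base windows was 9.38%. Assigning every gene within 50 kb (2409 tested) gave 981 lower and 586 higher with LPS+LA, 637 lower and 1022 higher with LPS, 729 lower and 398 higher with LPS+HCl, and 504 lower with LA alone, as more genes entered. For these choices of sites and genes the background over all tested genes is the one given above for each comparison. Total-count scaling gave 434 higher with LPS+LA, 659 lower and 366 higher with LPS, and 299 lower and 356 higher with LPS+HCl, so the split between higher and lower changed sides in those 3 comparisons. The background over all tested genes moved as well, to 50.8% higher and 16.6% lower with LPS+LA. It was 14.4% higher and 67.9% lower with LPS, and 37.1% higher and 10.7% lower with LPS+HCl. Under that scaling the differences from LPS to LPS+LA were 0.34 for Il10, 0.30 for Ndufs4, 0.39 for Osbpl8 (adjusted p = 2.52e-05, edgeR), 0.51 for Map2k3, now past the threshold, and -0.26 for Crem, no longer past it (adjusted p = 0.191). Without 1 RNA library at a time the difference ranged from -0.31 to 0.15 for Il10, from -0.2 to 0.01 for Ndufs4 and from -0.05 to 0.04 for Osbpl8 (0.0 without LPS+LA replicate 2), none past the threshold. Over the same fits, genes lower and higher with LPS+LA numbered 547 to 615 and 200 to 244, and genes lower with LPS 248 to 286. Libraries of the same replicate number showed no clear deviation in the same direction, which does not tell whether they came from the same culture. Correlations of deviations were -0.503 between control and LPS+HCl and -0.052 to 0.049 between all other groups. Control and LPS+HCl hold the libraries with neuronal genes, and a link with that value was not tested. A replicate block gave 601 lower and 235 higher with LPS+LA. The cause of the changed gene values was not tested.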
